A study of Homo sapiens with 6 samples.

Results

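The nuclear-encoded genes of oxidative phosphorylation were taken by symbol from a deposited expression table of IMR32 cells. A symbol belonged to the set when it began with NDUF, UQCR or ATP5, began with COX followed by a digit, or was SDHA, SDHB, SDHC, SDHD or CYC1. This gave 81 of 11351 symbols. They comprise 30 subunits of complex I, 3 of complex II, 6 of complex III, 11 genes of complex IV, 11 of complex V, 14 assembly and other factors, and 6 symbols of pseudogenes or a readthrough transcript. IMR32, an established line from a human neuroblastoma, carries extra copies of the oncogene MYCN in both groups. Bulk RNA of 3 libraries came from cells held for 24 h in 20 µM sAKZ692, which the study's design names as an activator of the transcription factor NRF2, and that of 3 libraries from cells held as long in DMSO, the solvent. The comparison asks which transcripts differ between compound and solvent in this 1 cell line. The labels do not say whether the libraries came from separate cultures, and p-values therefore cover only the differences among these libraries, which may be technical.

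Oxidative phosphorylation takes place in the inner mitochondrial membrane. Complexes I and II pass electrons from NADH and succinate to ubiquinone, complex III passes them on to cytochrome c, complex IV reduces oxygen, and complex V uses the proton gradient built by complexes I, III and IV to make ATP. Most subunits are encoded in the nucleus and imported, a small group is encoded in mitochondrial DNA, and assembly factors put the pieces together without staying in the finished enzyme. NRF2 (gene NFE2L2) is known for antioxidant and detoxification genes and is not the same protein as nuclear respiratory factor 1, which is known for binding promoters of many respiratory chain genes.

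Expression is in TPM, a level corrected for transcript length and library total, so that levels of different genes can be set side by side. With DMSO, 46 of the 81 members were at 100 TPM or more and 8 were under 10 TPM. The genes in the table summed to 61.2%, 61.4% and 65.9% of the TPM scale in replicates 1, 2 and 3 of sAKZ692 and to between 61.7% and 61.9% with DMSO, and the number of reads behind them is unknown. Of 12 markers of noradrenergic neuroblastoma cells, 8 were in the table, and their summed level was 3111 to 3335 TPM with sAKZ692 and 2809 to 2973 TPM with DMSO, with MYCN between 1347 and 1539 TPM and TH between 0.186 and 5.24 TPM. Of 8 mesenchymal markers, 4 were in the table (FN1, PDGFRB, THY1 and ACTA2), none at 0, with a sum of 110.0 to 119 TPM with sAKZ692 and 97.5 to 107 TPM with DMSO. Of these 4, PDGFRB (ratio of mean TPM 2.14, limma adjusted p = 0.00257) and THY1 (ratio 1.22, adjusted p = 0.0237) were higher with sAKZ692, and FN1, at 75.0% of its DMSO mean, and ACTA2 did not pass. The part of these marker levels in the results was not tested. Replicate 3 of sAKZ692 was unlike replicates 1 and 2. The members' median absolute log2 difference was 0.17 between replicates 3 and 1 and 0.18 between replicates 3 and 2 of sAKZ692, against 0.06 between replicates 1 and 2, and 0.07 to 0.09 between DMSO libraries. Results are therefore also given without that library where it changes them.

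On the deposited scale most of these genes lay slightly below the typical gene of the table with sAKZ692, and few passed the test. Of the 81 members, 78 reached a mean of 1 TPM over the 6 libraries and were tested with limma on log2(TPM + 1). With sAKZ692, 4 rose (NDUFA4L2, COX20, COX7A2L and NDUFA7), 11 fell (ATP5J2, NDUFB2, NDUFA6, NDUFAF8, NDUFV2, NDUFAF4, UQCRFS1P1, NDUFB6, NDUFAB1, NDUFS5 and NDUFB10) and 63 did not pass an adjusted p of 0.05. The members called higher were 5.13% of those tested, against 24.1% of all 9137 genes tested. The members called lower were 14.1%, against 8.5% of all genes tested. In these bulk samples, fewer cells expressing a gene and less of its RNA per cell cannot be told apart. TPM are relative to the library total, so neither cell number nor total RNA per cell can be read from them. The median log2 fold change of the members was -0.08, and that of all genes tested was 0.14. Of the 78 members, 54 were below 0 and 69 were below the median of all genes, a number that was 70 with median-ratio scaling but 39 with quantile normalization. The same was seen in each library on its own: 51, 52 and 47 of the 78 members were below their DMSO mean in replicates 1, 2 and 3 of sAKZ692, with medians of -0.09, -0.08 and -0.08, where the medians of all genes were 0.14, 0.16 and 0.13.

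The members' sAKZ692 and DMSO libraries did not overlap for 30 members in all. All 3 sAKZ692 libraries were below all 3 DMSO libraries for 22 members, 28.2% of those tested, where 14.6% of all genes showed this order. All 3 sAKZ692 libraries were above for 8 members, 10.3%, where 35.9% of all genes showed that order. The ranges overlapped for the other 48 members. By class, the members below were 12 of 30 in complex I, 1 of 3 in complex II, 1 of 5 in complex III, 1 of 11 in complex IV, 3 of 11 in complex V and 3 of 14 factors.

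The number of calls changed with single libraries. Leaving out replicate 3 of sAKZ692 gave 7 members higher and 21 lower, where 34.5% of all genes were called higher and 14.5% lower. All 15 calls were kept there and 13 were added. Leaving out replicate 1 of sAKZ692 gave 2 higher and 7 lower (8.97% lower), where 19.2% of all genes were called higher and 6.38% lower. Leaving out its replicate 2 gave 3 higher and 7 lower (8.97% lower), where 18.2% of all genes were called higher and 6.84% lower. Leaving out DMSO replicate 1 gave 1 higher and 3 lower (3.85% lower), where 13.9% of all genes were called higher and 4.42% lower. Leaving out DMSO replicate 2 gave 1 higher and 4 lower (5.13% lower), where 13.3% of all genes were called higher and 4.41% lower. Leaving out DMSO replicate 3 gave 3 higher and 3 lower (3.85% lower), where 13.3% of all genes were called higher and 4.83% lower. Without any 1 DMSO library, the members' share called lower was therefore near that of all genes, while their share called higher stayed below it in each of these 6 settings. The 15 called members kept their direction in every alternative in which each was tested, 15 for NDUFA4L2 and 16 for the others, and the calls of ATP5J2, NDUFA6 and NDUFA4L2 held in every alternative in which each was tested.

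**Figure D1:**
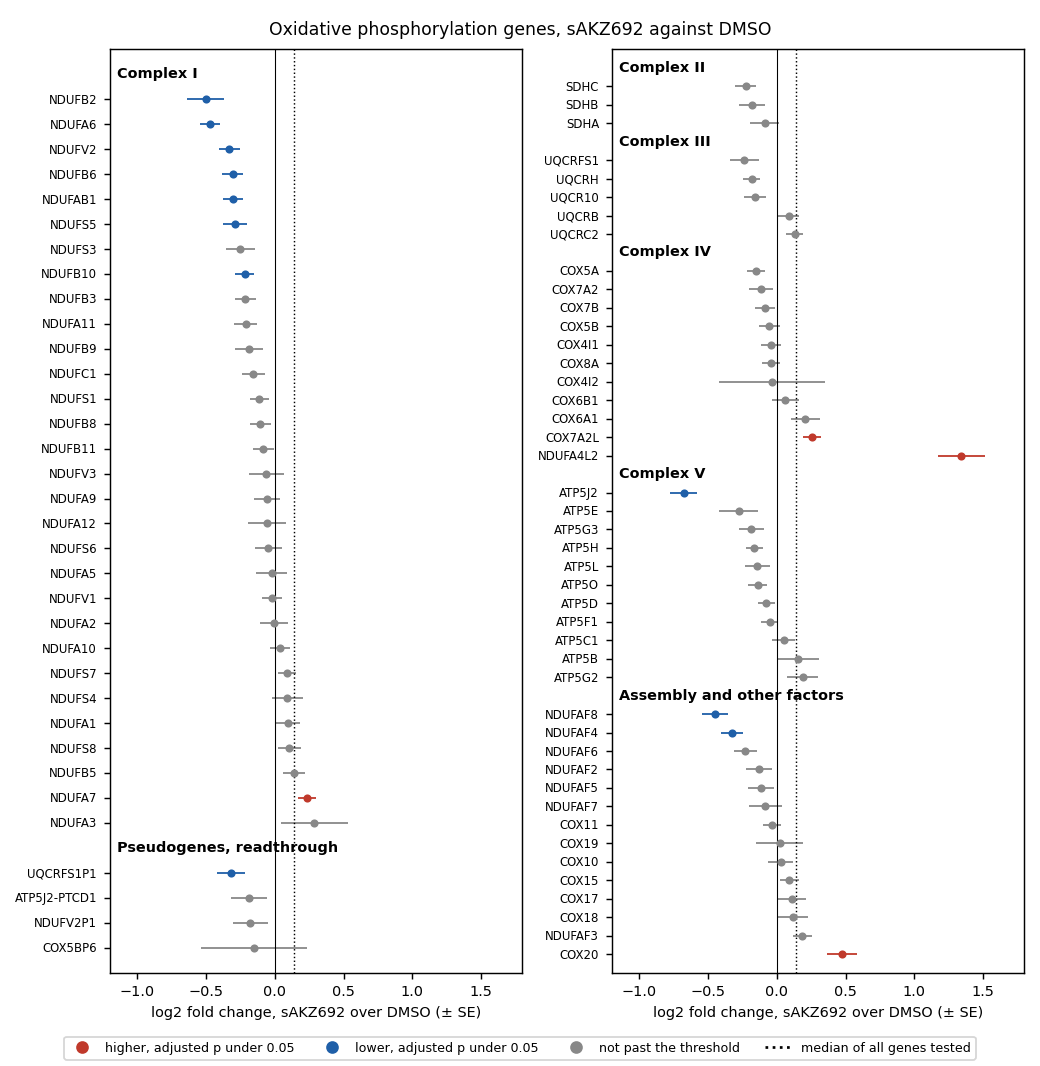
Log2 fold change of sAKZ692 over DMSO (x axis, point ± SE, 3 libraries a group) for the 78 tested members, 1 per line, grouped by complex. Points in red rose, points in blue fell and grey points did not pass limma's adjusted p of 0.05. The dotted line is the median of all 9137 genes tested (0.14), and 69 of the 78 points lie to its left.

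Promoters are shown for 4 members because they carry the contrasts described next. They are NDUFA4L2, which had the largest rise, NDUFA6 and NDUFA7, a pair of complex I subunits that were called in opposite directions on the deposited scale and hold the same motif, and NDUFAF4, a fallen assembly factor with a different motif. Each window runs from 250 bases before to 50 bases after the gene's start in RefSeq (GRCh38.p14), 5′ to 3′ on the gene's strand, which is the minus strand for all 4. They lie at chr12:57240713-57241012 (NDUFA4L2, listed there as COXFA4L2), chr22:42090723-42091022 (NDUFA6), chr19:8321326-8321625 (NDUFA7) and chr6:96897842-96898141 (NDUFAF4). Capitals mark the YY1 motif in NDUFA6 and NDUFA7, starting at base 276 and base 265 of the window, and the ETS motif in NDUFAF4, starting at base 104. The NDUFA4L2 window held none of the motifs searched.
NDUFA4L2: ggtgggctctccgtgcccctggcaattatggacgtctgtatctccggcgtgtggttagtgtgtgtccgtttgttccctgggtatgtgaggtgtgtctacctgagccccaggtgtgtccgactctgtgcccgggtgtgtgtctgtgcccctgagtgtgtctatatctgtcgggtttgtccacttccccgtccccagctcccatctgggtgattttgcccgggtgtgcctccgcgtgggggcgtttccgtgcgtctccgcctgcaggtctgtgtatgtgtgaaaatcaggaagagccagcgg
NDUFA6: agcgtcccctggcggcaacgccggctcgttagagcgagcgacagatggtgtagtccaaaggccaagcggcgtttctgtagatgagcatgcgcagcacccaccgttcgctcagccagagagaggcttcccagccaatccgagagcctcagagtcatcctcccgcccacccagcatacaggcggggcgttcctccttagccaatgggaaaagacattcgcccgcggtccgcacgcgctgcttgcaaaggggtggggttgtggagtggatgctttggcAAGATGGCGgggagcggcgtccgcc
NDUFA7: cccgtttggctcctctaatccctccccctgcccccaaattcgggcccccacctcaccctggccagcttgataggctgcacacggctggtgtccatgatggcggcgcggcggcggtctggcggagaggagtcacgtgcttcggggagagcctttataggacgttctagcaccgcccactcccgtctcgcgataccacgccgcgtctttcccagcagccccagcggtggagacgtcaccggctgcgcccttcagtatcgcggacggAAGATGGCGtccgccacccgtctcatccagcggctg
NDUFAF4: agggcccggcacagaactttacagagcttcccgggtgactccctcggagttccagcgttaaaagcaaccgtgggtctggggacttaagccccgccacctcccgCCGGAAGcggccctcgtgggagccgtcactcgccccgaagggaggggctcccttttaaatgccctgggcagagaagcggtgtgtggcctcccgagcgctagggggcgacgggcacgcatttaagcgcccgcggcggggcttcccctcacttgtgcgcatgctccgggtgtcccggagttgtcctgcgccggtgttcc

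The motifs were searched as plain letters on both strands, each on its own, so that a window can hold more than 1 and matches can overlap. Such a window was found for 62 of the 81 members. The nuclear respiratory factor 1 motif GCGCATGCG was in 8 of the 62 windows (12.9%), against 2.36% of 22199 protein-coding promoters of the same length. The YY1 motif AAGATGGCG was in 7 (11.3%), against 2.41%, and the ETS motif CCGGAAG, the family of GABP, was in 16 (25.8%), against 12.8%. The core of the antioxidant response element bound by NRF2, TGACNNNGC, was in 7 (11.3%), against 13.8%. Among the 8 fallen members with a window, 0 held the antioxidant or nuclear respiratory factor 1 motif, 1 held the ETS motif and 1 the YY1 motif, and among the 4 risen members 1 held the YY1 motif. A match is a description of letters only.

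Complex I, the NADH dehydrogenase, held 7 of the 11 members that fell and 1 of the 4 that rose. The fallen ones were 23.3% of its 30 tested members, against 8.5% of all genes, and the risen one was 3.33%, against 24.1% of all genes. Its median log2 fold change was -0.07, against 0.14 for all genes. Of the fallen ones, 6 are accessory subunits, and 3 of these are among the 8 NDUFB subunits, which belong to the membrane arm and had a median of -0.20. That median was -0.38 with median-ratio scaling and -0.096 with quantile normalization, and the 3 NDUFB calls became 7 and 1 under these settings and 0 without DMSO replicate 1 or 3. NDUFA6, an accessory subunit of the LYR protein family that binds the acyl carrier protein NDUFAB1 and whose promoter is printed above, was at 94.0, 96.3 and 101 TPM with sAKZ692 and at 142, 125 and 139 TPM with DMSO. All 3 sAKZ692 libraries were lower and close to each other. Its mean was 97.1 ± 3.56 TPM with sAKZ692 and 135 ± 8.73 TPM with DMSO (SD, n = 3 each), 71.8% of the DMSO level (log2 fold change -0.47, SE 0.07, limma adjusted p = 0.00365). NDUFAB1 itself, which also serves mitochondrial fatty acid synthesis, was at 129, 136 and 145 TPM with sAKZ692 and at 170.4, 161 and 174 TPM with DMSO (log2 fold change -0.30, SE 0.07, limma adjusted p = 0.0152). Both partners were thus lower in every sAKZ692 library than in any DMSO library.

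NDUFB2, a small accessory subunit of the membrane arm, was at 202, 209 and 145 TPM with sAKZ692 and at 263, 246 and 270.2 TPM with DMSO. Replicate 3 was the lowest sAKZ692 library, and without it the log2 fold change was -0.34, against -0.50 (SE 0.14, limma adjusted p = 0.0280) with all libraries. NDUFB6, another membrane arm subunit, was at 55.0, 54.4 and 49.7 TPM with sAKZ692 and at 66.7, 62.6 and 68.1 TPM with DMSO (log2 fold change -0.31, SE 0.07, limma adjusted p = 0.0187). NDUFB10, also of the membrane arm, was at 238, 231 and 219.9 TPM with sAKZ692 and at 278, 251 and 273 TPM with DMSO (log2 fold change -0.22, SE 0.07, limma adjusted p = 0.0472). The groups did not overlap for any of the 3, and NDUFB10 was the closest to the threshold of all members called. NDUFS5, an accessory subunit despite its symbol, was at 244, 249.7 and 294 TPM with sAKZ692 and at 330.4, 303 and 327 TPM with DMSO (log2 fold change -0.29, SE 0.09, limma adjusted p = 0.0406). Here replicate 3 was the highest sAKZ692 library, just below the lowest DMSO library. NDUFV2, a core subunit with an iron-sulfur cluster in the part that oxidises NADH, was at 102, 108 and 120.4 TPM with sAKZ692 and at 136, 143 and 135 TPM with DMSO (log2 fold change -0.33, SE 0.08, limma adjusted p = 0.0180). It was the 1 fallen member among the 6 core subunits in the table.

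NDUFA7, an accessory subunit of the arm in the matrix, was the 1 complex I member that rose. It was at 108, 104 and 106 TPM with sAKZ692 and at 87.5, 87.1 and 95.2 TPM with DMSO (log2 fold change 0.23, SE 0.07, limma adjusted p = 0.0328), with no overlap. With median-ratio scaling its log2 fold change was 0.049 (limma adjusted p = 0.630), and it was not called. Its promoter carries the same YY1 letters as that of NDUFA6, which fell. NDUFA3, a membrane arm subunit, had the highest fold change of the complex but did not pass, at 19.1, 22.8 and 16.4 TPM with sAKZ692 and 13.1, 12.2 and 23.7 TPM with DMSO (limma adjusted p = 0.386). Its DMSO replicate 3 exceeded every sAKZ692 library. The most abundant subunits did not pass either. NDUFB9, a LYR protein of the membrane arm, was at 409, 391 and 314 TPM with sAKZ692 and at 419.6, 413 and 426 TPM with DMSO (log2 fold change -0.19, limma adjusted p = 0.201). NDUFB11, a membrane arm subunit, was at 299, 283 and 326 TPM with sAKZ692 and at 326, 305 and 330.2 TPM with DMSO (log2 fold change -0.08, limma adjusted p = 0.427). The groups did not overlap for NDUFB9. With median-ratio scaling NDUFB9 (log2 fold change -0.37, limma adjusted p = 0.0329) and NDUFB11 (-0.27, adjusted p = 0.0390) were called lower. With quantile normalization neither was (adjusted p = 0.805 and 0.842). On the deposited scale 22 of the 30 members did not pass.

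The complex I calls depended on single libraries. The number fallen was 4 without replicate 1 or without replicate 2 of sAKZ692, 9 without its replicate 3, and 1, 3 and 1 without DMSO replicate 1, 2 and 3. As shares these last were 3.33%, 10.0% and 3.33%, against 4.42%, 4.41% and 4.83% of all genes, so the larger share of complex I called lower was not seen without DMSO replicate 1 or 3. Under quantile normalization NDUFB2 (limma adjusted p = 0.102), NDUFS5 (0.132) and NDUFB10 (0.200) lost their calls. NDUFAB1 lost its call without DMSO replicate 1 (limma adjusted p = 0.0679) or 3 (0.0668), and NDUFB6 without DMSO replicate 1 (0.0766) or 3 (0.0765). NDUFB2 lost it without DMSO replicate 1 (0.0885), 2 (0.0676) or 3 (0.102). NDUFV2 lost it without replicate 1 (0.0514) or 2 (0.0529) of sAKZ692 and without DMSO replicate 1 (0.0639), 2 (0.0780) or 3 (0.0563). NDUFS5 lost it without replicate 1 (0.112) or 2 (0.114) of sAKZ692 and without DMSO replicate 1 (0.136), 2 (0.0751) or 3 (0.129). NDUFB10 lost it without replicate 1 (0.0663) or 2 (0.101) of sAKZ692 and without DMSO replicate 1 (0.170), 2 (0.0667) or 3 (0.148). NDUFA7 lost it without replicate 1 (0.0830) or 2 (0.0647) of sAKZ692 and without DMSO replicate 1 (0.126) or 2 (0.125). Without replicate 3 of sAKZ692, NDUFS3, a core subunit, was called lower (log2 fold change -0.37, limma adjusted p = 0.000779), NDUFA12 lower (-0.22, adjusted p = 0.0183) and NDUFB5 higher (0.19, adjusted p = 0.0289), though NDUFB5 was at -0.045 with median-ratio scaling of all 6 libraries. Over the 16 alternatives the adjusted p of these 3 ranged from 0.000234 to 0.267, from 0.00139 to 0.957 and from 0.0289 to 0.941 in that order. For the called members it ranged from 0.000172 to 0.0679 for NDUFAB1, from 0.000845 to 0.0766 for NDUFB6, from 0.000237 to 0.102 for NDUFB2, from 7.54e-05 to 0.0780 for NDUFV2, from 0.00013 to 0.136 for NDUFS5, from 0.00159 to 0.200 for NDUFB10 and from 0.0126 to 0.630 for NDUFA7.

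Complex II, succinate dehydrogenase, links the chain to the citric acid cycle, and none of its 3 members passed the test. SDHC, a membrane anchor subunit, was at 218, 213 and 188 TPM with sAKZ692 and at 244, 237 and 241 TPM with DMSO. The groups did not overlap, and the adjusted p was just over the threshold (log2 fold change -0.23, SE 0.07, limma adjusted p = 0.0533). SDHA, the flavoprotein, was at 70.6, 72.9 and 92.5 TPM with sAKZ692 and at 83.1, 84.2 and 82.0 TPM with DMSO (log2 fold change -0.09, limma adjusted p = 0.550). SDHB, the iron-sulfur subunit, was at 76.4, 74.0 and 87.5 TPM with sAKZ692 and at 82.8, 97.5 and 89.7 TPM with DMSO (log2 fold change -0.18, limma adjusted p = 0.174). In both of these, replicate 3 was the highest sAKZ692 library, above all DMSO libraries for SDHA and inside their range for SDHB. Without it all 3 members were called lower, SDHC with a limma adjusted p of 0.0178, SDHA with 0.0122 and SDHB with 0.0195. Over the 16 alternatives it ranged from 0.000667 to 0.246 for SDHC, from 0.000466 to 0.921 for SDHA and from 0.00205 to 0.442 for SDHB.

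Complex III, the cytochrome bc1 complex, had 6 members in the table, of which 5 were tested and none passed. UQCRH, the hinge protein at the cytochrome c side, was at 246, 235 and 250.1 TPM with sAKZ692 and at 276, 266 and 288 TPM with DMSO (log2 fold change -0.18, SE 0.06, limma adjusted p = 0.0608). UQCRFS1, the Rieske iron-sulfur protein, was at 22.9, 22.6 and 28.5 TPM with sAKZ692 and at 28.1, 29.8 and 29.2 TPM with DMSO (log2 fold change -0.24, SE 0.11, limma adjusted p = 0.124). The groups were separate for UQCRH, and for UQCRFS1 replicate 3 of sAKZ692 reached into the DMSO range. Without that library both were called lower, UQCRH with a limma adjusted p of 0.0104 and UQCRFS1 with 0.00481, within ranges over the alternatives of 0.00105 to 0.233 for UQCRH and 0.000595 to 0.298 for UQCRFS1. UQCRC2, a core protein, was at 197, 195 and 204 TPM with sAKZ692 and at 177, 188 and 179 TPM with DMSO (log2 fold change 0.13, limma adjusted p = 0.140). UQCRB, a ubiquinone-binding subunit, was at 245, 279 and 242 TPM with sAKZ692 and at 234, 243 and 243 TPM with DMSO (log2 fold change 0.09, limma adjusted p = 0.399). The signs of UQCRC2 and UQCRB turned negative after median-ratio scaling, at -0.06 and -0.10. With quantile normalization UQCRC2 was called higher (log2 fold change 0.20, limma adjusted p = 0.0391) and UQCRFS1 lower (-0.38, adjusted p = 0.0429).

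Complex IV, cytochrome c oxidase, had 2 members that rose and none that fell among 11 tested. The risen ones were 18.2% of those tested, against 24.1% of all genes, and the fallen ones 0%, against 8.5% of all genes. Its median log2 fold change was -0.04, which was 0.041 with quantile normalization. NDUFA4L2, a paralogue of the complex IV subunit NDUFA4 that is known to be induced by hypoxia-inducible factor, had the largest rise of all members and a low level. It was at 6.06, 5.22 and 5.67 TPM with sAKZ692 and at 1.20, 2.24 and 1.52 TPM with DMSO. Every sAKZ692 library was more than any DMSO library. The means were 5.65 ± 0.417 TPM with sAKZ692 and 1.65 ± 0.531 TPM with DMSO (SD, n = 3 each), a ratio of 3.42 (log2 fold change 1.34 on the log2(TPM + 1) scale, SE 0.17, limma adjusted p = 0.00184). NDUFA4 was not analysed here. COX7A2L, which joins complex IV to complex III in supercomplexes, was at 219, 204 and 221 TPM with sAKZ692 and at 174, 179 and 186 TPM with DMSO. Its groups did not overlap (log2 fold change 0.25, SE 0.07, limma adjusted p = 0.0229), but with median-ratio scaling its log2 fold change was 0.068 (limma adjusted p = 0.491) and it was not called. The call was lost without replicate 1 of sAKZ692 (limma adjusted p = 0.0652) and without DMSO replicate 1 (0.102), 2 (0.0858) or 3 (0.0557), and over the 16 alternatives the adjusted p ranged from 0.00735 to 0.583.

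The other complex IV members did not pass. COX6A1, the common isoform of a small membrane subunit and the member with the highest mean over the 6 libraries, was at 1131, 1084 and 1403 TPM with sAKZ692 and at 1006, 1015 and 1097 TPM with DMSO (log2 fold change 0.21, limma adjusted p = 0.173). Replicate 3 of sAKZ692 was the highest library, and replicate 2 lay inside the DMSO range. With quantile normalization COX6A1 was called higher (log2 fold change 0.25, limma adjusted p = 0.0370). With median-ratio scaling it was not called (0.021, adjusted p = 0.902). COX8A, a small membrane subunit, was at 429, 394 and 416 TPM with sAKZ692 and at 407, 429 and 441 TPM with DMSO (log2 fold change -0.04, limma adjusted p = 0.645). COX5A, a subunit on the matrix side, was at 331, 329 and 349 TPM with sAKZ692 and at 368, 361 and 391 TPM with DMSO (log2 fold change -0.15, limma adjusted p = 0.112). Its groups did not overlap, and without replicate 3 of sAKZ692 it was called lower (log2 fold change -0.18, limma adjusted p = 0.0158). COX4I1, the common isoform of a subunit with a role in regulation, was at 272, 250.04 and 257 TPM with sAKZ692 and at 258, 259.6 and 286 TPM with DMSO (log2 fold change -0.04, limma adjusted p = 0.668). COX4I2, its isoform linked to low oxygen and lung, was at 5.66, 7.45 and 1.70 TPM with sAKZ692 and at 4.79, 4.80 and 3.88 TPM with DMSO. The sAKZ692 libraries lay on both sides of the DMSO ones, and the log2 fold change of -0.04 (limma adjusted p = 0.948) became 0.45 without replicate 3 of sAKZ692 (adjusted p = 0.0323). Over the alternatives the adjusted p ranged from 0.0323 to 0.997 for COX4I2 and from 0.00129 to 0.792 for COX5A.

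Complex V, the ATP synthase, held the largest fall of all members. ATP5J2, the f subunit of its membrane part, was at 687, 709.7 and 563 TPM with sAKZ692 and at 1069, 985 and 1068 TPM with DMSO. It was the most abundant complex V transcript with DMSO, and every sAKZ692 library was below every DMSO library. The means were 653 ± 79.2 TPM with sAKZ692 and 1041 ± 47.8 TPM with DMSO (SD, n = 3 each), 62.8% of the DMSO level (log2 fold change -0.68, SE 0.10, limma adjusted p = 0.00299). ATP5J2 shares sequence with the readthrough ATP5J2-PTCD1, so the split of reads between them is uncertain. The other 10 members of complex V did not pass. ATP5B, the catalytic beta subunit, was at 905, 911 and 1357 TPM with sAKZ692 and at 938, 956 and 909 TPM with DMSO (log2 fold change 0.15, limma adjusted p = 0.468). Replicate 3 alone was high, and without it the log2 fold change was -0.04, so the sign rested on that library. Of the 4 F1 head members, ATP5B, ATP5C1, ATP5D and ATP5E, none passed. Without replicate 3 of sAKZ692, ATP5H, the d subunit of the stalk, was also called lower, at 418, 424 and 446 TPM with sAKZ692 and 467, 479 and 498 TPM with DMSO (log2 fold change -0.19 without that library, limma adjusted p = 0.00732, in a range over the alternatives of 0.000641 to 0.440).

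Of the 14 assembly and other factors, 1 rose and 2 fell, and their median log2 fold change was -0.01. The risen one was 7.14% of the factors, against 24.1% of all genes, and the fallen ones 14.3%, against 8.5% of all genes. Both fallen factors act in complex I assembly, for which the symbol rule took in 7 factors. The median of these 7 was -0.13 (-0.31 with median-ratio scaling and -0.26 with quantile normalization). No call among them was left without DMSO replicate 2. The risen one acts in complex IV assembly, for which the rule also took in 7 factors. Their median was 0.09, which was -0.090 after median-ratio scaling. Both medians cover only factors with such symbols. Of 27 tested assembly factors outside the rule, described further below, 2 rose and 6 fell. NDUFAF8, the partner of the assembly factor NDUFAF5, was at 191, 173 and 149 TPM with sAKZ692 and at 227, 239.6 and 232 TPM with DMSO. The groups did not overlap (log2 fold change -0.45, SE 0.10, limma adjusted p = 0.0110), and the call was lost without DMSO replicate 2 (limma adjusted p = 0.0515). NDUFAF4, whose promoter is shown with its ETS motif, was at 51.1, 55.8 and 47.7 TPM with sAKZ692 and at 63.6, 66.0 and 64.7 TPM with DMSO (log2 fold change -0.33, SE 0.08, limma adjusted p = 0.0177). It lost its call without DMSO replicate 1 (0.0614), 2 (0.0743) or 3 (0.0641). Its assembly partner NDUFAF3 did not pass the test, at 93.9, 96.5 and 87.0 TPM with sAKZ692 and 80.9, 80.5 and 81.7 TPM with DMSO (log2 fold change 0.19, limma adjusted p = 0.0687). The NDUFAF3 libraries did not overlap, and without replicate 3 of sAKZ692 it was called higher (adjusted p = 0.00679) while NDUFAF2 was called lower (adjusted p = 0.0200). After median-ratio scaling the log2 fold change of NDUFAF3 was 0.0034. Over the 16 alternatives the adjusted p ranged from 0.000234 to 0.0515 for NDUFAF8, from 0.000498 to 0.0743 for NDUFAF4, from 0.00679 to 0.975 for NDUFAF3 and from 0.00163 to 0.599 for NDUFAF2.

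COX20, which chaperones the mitochondrially encoded COX2 subunit, was the factor among the members that rose. It was at 34.5, 43.4 and 34.7 TPM with sAKZ692 and at 24.9, 27.0 and 28.0 TPM with DMSO, 141% of the DMSO mean (log2 fold change 0.47, SE 0.11, limma adjusted p = 0.0151). No sAKZ692 library was as low as any DMSO library. The call was lost without DMSO replicate 1 (limma adjusted p = 0.0648) or 2 (0.0542), with median-ratio scaling (0.0724) and with quantile normalization (0.0588), and the lowest adjusted p over the 16 alternatives was 0.00313. COX11, which delivers copper to complex IV, was the most abundant complex IV factor among the members. It was at 141, 136 and 129 TPM with sAKZ692 and at 139, 133 and 142 TPM with DMSO (log2 fold change -0.03, limma adjusted p = 0.737). The remaining complex IV factors among the members, COX10, COX15, COX17, COX18 and COX19, had log2 fold changes of 0.03, 0.09, 0.11, 0.12 and 0.02 and did not pass. With median-ratio scaling all 5 were negative, at -0.15, -0.090, -0.073, -0.056 and -0.14 in that order. COX11 was then called lower (log2 fold change -0.22, limma adjusted p = 0.0475), and none of these 5 was called.

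The 6 symbols that are not ordinary protein-coding genes included 1 call. UQCRFS1P1, a pseudogene of the Rieske protein gene UQCRFS1, was listed at 72.4, 66.7 and 86.7 TPM with sAKZ692 and at 93.7, 94.6 and 92.5 TPM with DMSO (log2 fold change -0.32, SE 0.10, limma adjusted p = 0.0440). The call was lost without replicate 1 (limma adjusted p = 0.107) or 2 (0.118) of sAKZ692 and without DMSO replicate 1 (0.122), 2 (0.127) or 3 (0.115), and the lowest adjusted p over the alternatives was 0.000119. It stood at a higher level than UQCRFS1 itself in all 6 libraries. The copies are nearly identical and the reads were 50 bases long, so the split between them is uncertain, and their sum was 99.9 ± 13.5 TPM with sAKZ692 and 123 ± 1.56 TPM with DMSO (SD, n = 3 each), 81.5% of the DMSO level. The readthrough ATP5J2-PTCD1 was at 20.4, 20.4 and 15.4 TPM with sAKZ692 and at 22.2, 22.9 and 19.1 TPM with DMSO and did not pass. The pseudogenes NDUFV2P1 and COX5BP6 did not pass, and ATP5G1P4, NDUFB8P2 and the UQCRH paralogue UQCRHL stayed below 1 TPM in all libraries and were not tested.

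**Figure D2:**
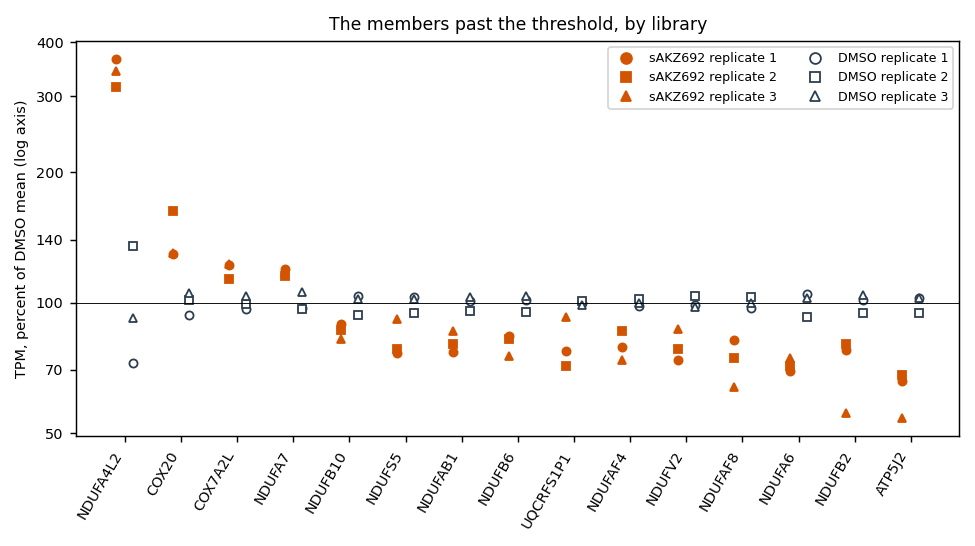
Level of the 15 members past the threshold in each library, as a percent of the gene's mean with DMSO (y axis, log scale). Filled orange symbols are the sAKZ692 libraries and open symbols the DMSO libraries, with 1 symbol shape per replicate number. NDUFA4L2 stands apart at the left with a ratio of means of 3.42, and ATP5J2 is at the right at 62.8%.

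Isoforms were compared as shares within each library, which no scaling of a library can change. COX7A2L made up 43.8%, 37.7% and 40.9% of the summed COX7A2 and COX7A2L level with sAKZ692 and 33.9%, 35.9% and 34.5% with DMSO. The groups did not overlap, and the mean share was 40.8 ± 3.06% with sAKZ692 and 34.7 ± 1.02% with DMSO (SD, n = 3 each; two-sided exact permutation p = 0.1, the smallest that 3 against 3 libraries allow). COX7A2, the subunit in single complex IV, was at 281, 337 and 319 TPM with sAKZ692 and at 340.2, 319.7 and 354 TPM with DMSO (log2 fold change -0.12, limma adjusted p = 0.325). Which gene of the pair was called depended on the scale. COX7A2L was higher and COX7A2 did not pass as deposited, whereas with median-ratio scaling COX7A2 was lower (log2 fold change -0.30, limma adjusted p = 0.0334) and COX7A2L did not pass (0.068, adjusted p = 0.491).

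ATP5G2 and ATP5G3 encode the same mature c subunit of the ATP synthase rotor. ATP5G2 was at 866, 844 and 1118 TPM with sAKZ692 and at 779, 831 and 854 TPM with DMSO (log2 fold change 0.19, limma adjusted p = 0.239). ATP5G3 was at 222, 234 and 189 TPM with sAKZ692 and at 252, 229 and 248 TPM with DMSO (log2 fold change -0.18, limma adjusted p = 0.162). The share of ATP5G2 was 81.2 ± 3.87% with sAKZ692 and 77.1 ± 1.42% with DMSO (SD, n = 3 each; exact permutation p = 0.2), and replicate 2 of sAKZ692 lay inside the DMSO range. The share of COX4I2 in the COX4 pair was 1.86 ± 1.13% with sAKZ692 and 1.66 ± 0.279% with DMSO (SD, n = 3 each; exact permutation p = 0.8). UQCRHL was 0.245 ± 0.0316% of the UQCRH pair with sAKZ692 and 0.174 ± 0.0775% with DMSO (SD, n = 3 each; exact permutation p = 0.3). These 4 families were all that had at least 2 genes in the table, and none could reach an exact p under 0.1.

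Summed over each complex, the transcript level of complex I was 4356, 4321 and 4311 TPM with sAKZ692 and 4767, 4569 and 4877 TPM with DMSO, 91.4% of the DMSO mean, with no overlap. Complex II summed to 365, 360.4 and 368 TPM with sAKZ692 and 410.3, 419 and 413 TPM with DMSO, 88.0%, also with no overlap. Complex V summed to 4976, 5017 and 5392 TPM with sAKZ692 and 5434, 5395 and 5654 TPM with DMSO, 93.3%, with replicate 3 of sAKZ692 just below the lowest DMSO library. Complexes III and IV overlapped between the groups. Complex III reached 97.7% of the DMSO mean and complex IV 103%, where 3806 TPM in replicate 3 of sAKZ692 was the highest library of all. Over all 81 members the sum was 14877, 14877 and 15606 TPM with sAKZ692 and 15805, 15570.2 and 16419 TPM with DMSO, 94.9%. As a share of everything listed, the members were 2.37% to 2.43% with sAKZ692 and 2.52% to 2.66% with DMSO. No test was run on these sums, to which abundant genes contribute most.

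**Figure D3:**
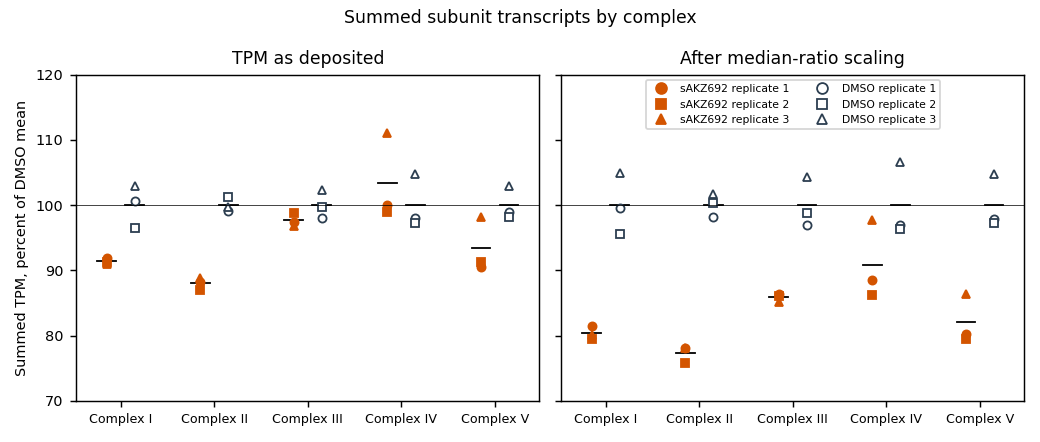
Summed TPM of the members of each complex in each library, as a percent of the DMSO mean (y axis), with the deposited values on the left and after median-ratio scaling on the right. Filled orange symbols are sAKZ692 libraries, open symbols are DMSO libraries and short bars are group means. On the deposited scale complexes I, II and V lie below DMSO without overlap, and after scaling only complex IV overlaps.

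How many members count as lower depended on how the libraries were put on a common scale. Median-ratio scaling, which sets each library by its typical gene, gave a median log2 fold change of all genes of -0.03, against 0.14 as deposited. It gave 1 member higher and 39 lower, where 13.6% of all genes were called higher and 19.2% lower, with a member median of -0.26. The 39 comprised 15 of complex I, 2 of complex II, 3 of complex III, 4 of complex IV, 8 of complex V, 6 factors and 1 pseudogene, and NDUFA4L2 was the 1 that rose. The summed level of all members was then 83.4% of DMSO, with complex I at 80.3%, II at 77.4%, III at 85.8%, IV at 90.8% and V at 82.0%. Quantile normalization gave 5 higher and 10 lower, where 11.7% of all genes were called higher and 13.0% lower. Measured against the median of all genes, 69 of 78 members were lower on the deposited scale and 70 of 78 after median-ratio scaling, but 39 of 78 after quantile normalization, which gives every library the same distribution of values. The members' median minus that of all genes was -0.22 on the deposited scale, -0.24 after median-ratio scaling and -0.0038 with quantile normalization.

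**Figure D4:**
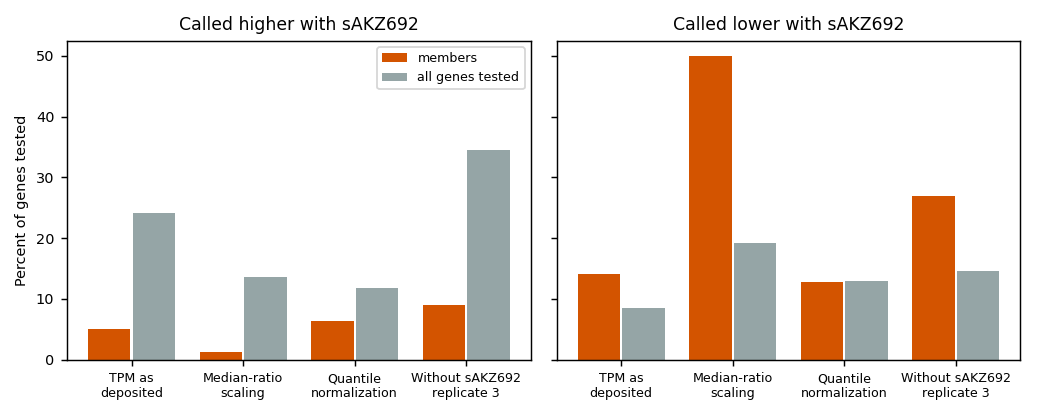
Share of genes called higher (left) and lower (right) with sAKZ692 (y axis, percent of genes tested at limma's adjusted p of 0.05) under 4 settings on the x axis. Orange bars are the 78 members and grey bars all genes tested. The members called lower are 14.1% on the deposited scale, 50% after median-ratio scaling, 12.8% after quantile normalization and 26.9% without replicate 3 of sAKZ692.

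The members varied more between sAKZ692 libraries than between DMSO libraries. Over the 75 members with a mean of at least 5 TPM, the median coefficient of variation was 7.74% with sAKZ692 and 4.69% with DMSO, and it was larger with sAKZ692 for 53. Replicates 1 and 2 of sAKZ692 were closer to each other (median absolute log2 difference 0.057) than any pair of DMSO libraries (0.071 to 0.090), so the larger spread rested on replicate 3. Over all genes that library also differed most, by 0.24 from replicate 1 and 0.23 from replicate 2, against 0.11 between replicates 1 and 2 and 0.089 to 0.11 between DMSO libraries. Replicate 3 of sAKZ692 differed from the mean of replicates 1 and 2 by ratios from 0.666 for COX19, a copper-handling factor, to 1.49 for ATP5B. Its members thus lay on both sides of the other sAKZ692 libraries.

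Other genes of mitochondrial respiration were taken from lists by function, and their calls are counted against the same 24.1% higher and 8.5% lower of all genes. Of 27 tested assembly factors outside the symbol rule, 2 rose and 6 fell (median log2 fold change -0.13). Among them UQCC2, which helps make cytochrome b of complex III, was at 108, 109.6 and 112 TPM with sAKZ692 and 164, 138 and 176 TPM with DMSO (log2 fold change -0.52, limma adjusted p = 0.00626). HIGD2A, a factor of complex IV and supercomplexes, was at 247, 206 and 256 TPM with sAKZ692 and 167, 161 and 170.0 TPM with DMSO (log2 fold change 0.50, limma adjusted p = 0.0066). Neither pair of groups overlapped. Of 18 tested genes of mitochondrial protein import, 1 rose and 6 fell (median -0.16). TOMM6, a small subunit of the outer membrane import channel, was at 295, 305 and 268 TPM with sAKZ692 and 395, 401 and 411 TPM with DMSO (log2 fold change -0.48, limma adjusted p = 0.00305). TIMM50, a receptor of the inner membrane import machinery, was at 156, 153 and 146 TPM with sAKZ692 and 189, 197 and 210.0 TPM with DMSO (log2 fold change -0.39, limma adjusted p = 0.00574). Both were lower in every sAKZ692 library.

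Of 12 tested regulators of mitochondrial biogenesis, 2 rose and 4 fell (median -0.11). PPARGC1A, the coactivator PGC-1 alpha that drives respiratory chain genes in other tissues, was at 9.46, 9.80 and 9.35 TPM with sAKZ692 and at 4.01, 3.99 and 4.40 TPM with DMSO (log2 fold change 1.04, limma adjusted p = 0.000894). ESRRA, a nuclear receptor that works with it, was at 25.6, 24.0 and 24.2 TPM with sAKZ692 and at 17.1, 17.3 and 14.6 TPM with DMSO (log2 fold change 0.57, limma adjusted p = 0.00491). Both were higher in every sAKZ692 library than in any DMSO library. The 4 that fell, named after their values were seen, were TFAM, the packaging factor of mitochondrial DNA (log2 fold change -0.43), SSBP1, its single-strand binding protein (-0.34), GABPB1, a subunit of the ETS factor GABP (-0.34), and TWNK, the mitochondrial DNA helicase (-0.32). TFAM lost its call without DMSO replicate 1 (limma adjusted p = 0.0579) or 3 (just over the threshold of 0.05), and GABPB1 without DMSO replicate 1 (0.0669) or 2 (0.0683). TWNK lost it without replicate 2 of sAKZ692 (0.0508) or DMSO replicate 1 (0.106), 2 (0.0988) or 3 (0.0504), and SSBP1 kept it in all 16 alternatives.

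Of 19 tested genes of the citric acid cycle and pyruvate dehydrogenase, 2 rose and 1 fell (median 0.01). FH, fumarate hydratase, was at 92.9, 94.6 and 97.5 TPM with sAKZ692 and at 118, 114 and 118 TPM with DMSO (log2 fold change -0.29, limma adjusted p = 0.0104), and its call was lost without DMSO replicate 1 (adjusted p = 0.0548). PDP2, a phosphatase that activates pyruvate dehydrogenase, was at 12.4, 14.5 and 12.7 TPM with sAKZ692 and at 9.99, 9.36 and 8.95 TPM with DMSO (log2 fold change 0.44, limma adjusted p = 0.0169). The PDP2 call was lost without replicate 2 of sAKZ692 (adjusted p = 0.0541) or DMSO replicate 2 (0.0640) or 3 (0.0657), and with median-ratio scaling (0.0697) or with quantile normalization (0.196). Of 12 tested genes of coenzyme Q synthesis and cytochrome c, 3 rose and 0 fell (median 0.12), led by COQ8B, a regulator of coenzyme Q synthesis, at 31.6, 31.9 and 24.6 TPM with sAKZ692 and 16.8, 17.3 and 15.7 TPM with DMSO (log2 fold change 0.78, limma adjusted p = 0.00326). COQ10B, a coenzyme Q chaperone, was at 10.9, 8.93 and 11.1 TPM with sAKZ692 and 6.76, 6.42 and 6.15 TPM with DMSO (log2 fold change 0.60, limma adjusted p = 0.00861, which was 0.132 after quantile normalization). CYCS, the gene of cytochrome c itself, named after its values were seen, was at 226, 239.7 and 164 TPM with sAKZ692 and 273, 267 and 264 TPM with DMSO, without overlap, and did not pass (log2 fold change -0.37, limma adjusted p = 0.0719). It was called lower without replicate 3 of sAKZ692 (log2 fold change -0.20, adjusted p = 0.0076) and with median-ratio scaling (-0.56, adjusted p = 0.0191), and not with quantile normalization (adjusted p = 0.198). Of 11 tested genes that move or buffer ATP and phosphate, 4 rose and 1 fell (median 0.17). CKMT1A and CKMT1B, near-identical copies of the mitochondrial creatine kinase gene between which reads cannot be split with certainty, had log2 fold changes of 0.69 and 0.55 (limma adjusted p = 0.00322 and 0.00229). Mitochondrially encoded subunits were not analysed here.

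With median-ratio scaling, where 13.6% of all genes were called higher and 19.2% lower, the lists had 1 higher and 14 lower among the assembly factors, 0 and 11 among the import genes, 2 and 6 among the regulators, 0 and 8 among the citric acid cycle genes, 3 and 2 among the coenzyme Q genes and 3 and 1 among the carriers. The medians of the last 3 lists were then negative, at -0.18, -0.055 and -0.016. The counts also moved with 1 library left out at a time, where between 13.3% and 34.5% of all genes were called higher and between 4.41% and 14.5% lower. The assembly factors ranged from 1 to 5 higher and from 2 (without DMSO replicate 1 or 3) to 6 lower, and the import genes from 0 (without any 1 DMSO library) to 3 higher (without replicate 3 of sAKZ692) and from 2 (without DMSO replicate 1 or 2) to 8 lower (without replicate 3 of sAKZ692). The regulators ranged from 2 to 3 higher and from 1 (without DMSO replicate 1) to 5 lower (without replicate 3 of sAKZ692). The citric acid cycle genes ranged from 0 (without DMSO replicate 2 or 3) to 3 higher (without replicate 3 of sAKZ692) and from 0 to 1 lower. The coenzyme Q genes ranged from 2 to 4 higher and from 0 to 1 lower, and the carriers stayed at 4 higher with 0 to 2 lower. PPARGC1A, ESRRA, UQCC2, HIGD2A, TOMM6, TIMM50, COQ8B, CKMT1A and CKMT1B kept their calls in all 16 alternatives.

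**Figure D5:**
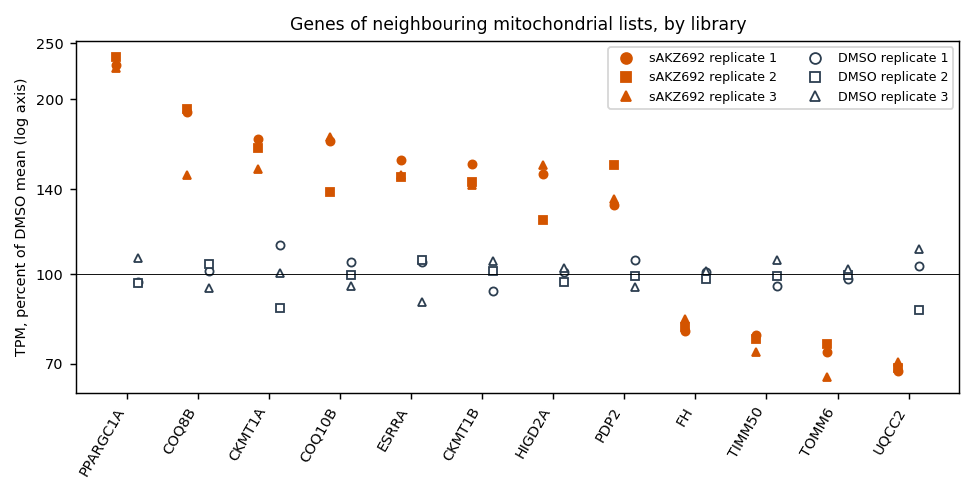
Level of the 12 named genes of the neighbouring lists in each library, as a percent of the gene's mean with DMSO (y axis, log scale). Filled orange symbols are sAKZ692 libraries and open symbols DMSO libraries, with 1 shape per replicate number. PPARGC1A, at 9.35 to 9.80 TPM with sAKZ692 and 3.99 to 4.40 TPM with DMSO, lies farthest above DMSO, and UQCC2, with a log2 fold change of -0.52, farthest below.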

How the data were processed

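Gene-level TPM, which correct for transcript length and library total, were deposited by the authors as 1 table of 6 libraries with 11351 symbols. The submitters' processing notes name kallisto for this step. Which version, annotation and genome build it used, and whether strand was considered, is not given in the sources used here. Per the labels' protocols, total RNA was read as single ends of 50 bases. TPM hold no read numbers, so depth and counting error are unknown.

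The 9137 genes whose mean reached 1 TPM were tested on log2(TPM + 1), a scale that understates changes of low genes. limma 3.58.1 in R 4.3.3 with a mean-variance trend compared sAKZ692 with DMSO, and p-values were adjusted by Benjamini-Hochberg over all genes tested, at a threshold of 0.05. Isoform shares used two-sided exact permutation tests. Members and lists were chosen with earlier results of these data known. Values by library are given for all members past the threshold, for the most abundant and most changed members of each complex, for isoform families and for up to 2 genes of each neighbouring list. Alternatives changed the pseudocount (0.5, 0.1), the filter (none, 5 TPM), scaling (median-ratio, quantile), the trend, robust estimation, a replicate block and each library in turn. Median-ratio scaling without replicate 3 of sAKZ692 was added after seeing the data. Promoter windows are from RefSeq, matched by symbol for 67 members and by synonym for 14.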

Additional observations from a re-analysis of the deposited data

How the results depend on the processing

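Depth is unknown and each group has 3 libraries of 1 cell line, so small differences could not be resolved, and a member that did not pass is not shown to be equal between the groups. Whether the replicate numbers pair the samples is not known. Deviations of same-numbered libraries from their group means correlated at 0.0614, -0.0246 and 0.0415, against -0.0652 to 0.0411 for the other pairs. Deviations from means of only 3 libraries cannot decide this. With a replicate block, 2 members were higher and 8 lower (all genes 20.4% and 6.96%). COX7A2L (limma adjusted p = 0.0510), NDUFA7 (0.0673), NDUFB10 (0.0835), NDUFS5 (0.0535) and UQCRFS1P1 (0.0652) were then not called. Limma without the trend also gave 2 higher and 8 lower (all genes 24.0% and 7.14%), without the same 5. Median-ratio scaling gave 1 higher and 39 lower (all genes 13.6% and 19.2%), and 2 higher and 51 lower (all genes 20.2% and 27.5%) when replicate 3 of sAKZ692 was also left out. Leaving out 1 library at a time gave 1 to 7 higher and 3 to 21 lower (all genes 13.3% to 34.5% and 4.41% to 14.5%).

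The members' median log2 fold change was -0.26 after median-ratio scaling, -0.036 after quantile normalization and -0.27 after median-ratio scaling without replicate 3 of sAKZ692. In that order of settings it was -0.25, -0.020 and -0.28 for complex I, -0.34, -0.10 and -0.29 for complex III, -0.23, 0.041 and -0.23 for complex IV, -0.32, -0.029 and -0.27 for complex V, and -0.18, -0.16 and -0.18 for the factors. For complex II it was -0.36 and -0.40 in the first and the last. Without the filter that of complex III was -0.035, since the low UQCRHL then counts. With 1 library left out it ranged from -0.12 to -0.073 for complex I, -0.19 to -0.10 for complex III and -0.16 to -0.074 for complex V. Summed levels after median-ratio scaling were 83.4% of DMSO for all members, and 80.3%, 77.4%, 85.8%, 90.8% and 82.0% for complexes I to V. The cause of these shifts beyond the change of scale was not tested.

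Signs turned for members that had not passed, 16 of them with median-ratio scaling and 15 with quantile normalization. Those given in every library above are these. After median-ratio scaling ATP5B was at -0.033, UQCRB at -0.099 and UQCRC2 at -0.055, and with replicate 3 of sAKZ692 also left out ATP5B was at -0.23, ATP5G2 at -0.13, COX6A1 at -0.096, UQCRB at -0.066, UQCRC2 at -0.077 and COX4I2 at 0.30. After quantile normalization COX11 was at 0.00034, COX4I1 at 0.041, COX7A2 at 0.015, COX8A at 0.078 and NDUFB11 at 0.020. With 1 library left out ATP5B ranged from -0.040 to 0.25, COX11 from -0.061 to 0.0024, COX4I1 from -0.078 to 0.0056 and COX4I2 from -0.37 to 0.45.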
